A study of Mus musculus with 8 samples.

Results

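The oxidative phosphorylation subunits are the protein-coding transcripts for the 5 enzyme complexes of the inner mitochondrial membrane that carry electrons and make ATP. They were followed in livers of mice given the food preservative potassium sorbate. Members were chosen by gene symbol, with the patterns for Nduf, Sdh, Uqcr, Cox4 to Cox8, Atp5 and the mitochondrially encoded mt-Nd, mt-Co, mt-Cytb and mt-Atp genes, and by a minimum of 400 counts summed over the 8 libraries used. Of 55487 genes in the table, 98 matched the symbol patterns and 86 of these reached the minimum, 76 encoded in the nucleus and 10 in mitochondrial DNA. The nuclear members comprised 36 genes of complex I, 4 of complex II, 8 of complex III, 11 of complex IV and 17 of complex V, and the mitochondrial members comprised 5 of complex I, 1 of complex III, 3 of complex IV and 1 of complex V. No measured difference between groups entered this choice.

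The measurements came from bulk sequencing of poly(A) RNA from snap-frozen liver. The sorbate group held 4 libraries from livers taken 4 h after an oral gavage with 17 mg of potassium sorbate. Sorbate is a short unsaturated fatty acid. The control group held 4 libraries from livers taken 4 h after a gavage of water. All animals were male C57Bl/6J mice, an inbred strain, at about 10 weeks of age, and no engineered allele or other agent is named for either group. Whole liver was sampled, so hepatocytes and other liver cells contributed together, and a fall in the number of cells of a type and a fall in RNA per cell cannot be told apart.

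Complex I oxidises NADH, complex II oxidises succinate and is also an enzyme of the tricarboxylic acid cycle, and both pass electrons through coenzyme Q to complex III. Complex III hands them to cytochrome c, complex IV passes them to oxygen, and complex V uses the proton gradient built by complexes I, III and IV to make ATP. Complex II is encoded entirely in the nucleus, whereas the other complexes each combine nuclear subunits with a few made from mitochondrial DNA, so the assembled enzymes draw on both genomes. In liver these complexes support the energy-demanding work of the hepatocyte, among it gluconeogenesis, urea synthesis and fatty acid oxidation.

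Total counts per library ran from 15773932 to 25844731. Hepatocyte marker transcripts were abundant in every library, with 7 of the 8 listed markers found in the table, a summed level of 76260 to 100600 CPM (read counts per 1000000 of the scaled library size) in sorbate livers and 65220 to 82240 CPM in control livers, and 0 of 7 called in either direction. Of all genes tested, 6.14% were called higher and 6.3% lower. Without the library control 2, 1 of the 7 was called higher (Cps1) and 0 lower, where 15.1% and 14.1% of all genes were. The library control 2 stood apart from the other controls. The first principal component (53.6% of the variance) placed the sorbate libraries at 21.9 to 37.8, control 2 at 15.4, and the remaining controls at −49.1 to −42.1. Values without control 2 are therefore given beside results whose call changed without it. Sorbate 2 had the lowest share of counts from the mitochondrial members, 3.61%, where the other sorbate libraries had 5.28% to 6.69% and the control libraries 3.88% to 6.04%.

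Part of the mitochondrial genome has a near-identical copy on mouse chromosome 1, and the sequences decide which mitochondrial levels can be read gene by gene. In the GENCODE vM21 annotation of the GRCm38 build, an insertion that spans pseudogenes between chr1:24611535-24612410 (Gm28439) and chr1:24615706-24616197 (Gm29216) repeats mt-Nd4, mt-Nd3, mt-Co3, mt-Atp6, mt-Co2 and the end of mt-Co1. Over the whole compared length, the 681 bases of Gm28661 were identical to mt-Co2, the 678 bases of Gm10925 to mt-Atp6 and the 783 bases of Gm28437 to mt-Co3. Gm28439 was identical to the first 876 bases of mt-Nd4. Gm29216 differed from mt-Co1 at 6 of 492 bases, all close to its start: T1056A, C1057T, A1059G, A1060G, C1062A and A1066T, counted from the first base of mt-Co1 with the mt-Co1 base first. The following stretches are printed because they show how a short read can or cannot be assigned. For mt-Co1 and Gm29216 they cover bases 1054 to 1113 of mt-Co1 and capitals mark the differing bases. For mt-Co2 and Gm28661 they cover the first 60 bases, and no base is capitalised because none differs.
mt-Co1 (chrM:5328-6872, plus strand): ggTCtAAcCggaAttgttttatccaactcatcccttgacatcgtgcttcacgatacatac
Gm29216 (chr1:24615706-24616197, minus strand): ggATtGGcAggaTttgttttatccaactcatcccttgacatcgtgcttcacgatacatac
mt-Co2 (chrM:7013-7696, plus strand): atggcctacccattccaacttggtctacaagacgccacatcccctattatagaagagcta
Gm28661 (chr1:24614885-24615565, minus strand): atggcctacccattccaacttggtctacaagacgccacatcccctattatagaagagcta

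A read that starts past the last of these differences in mt-Co1 is thus the same letter for letter in both places. Stretches of 50 bases that also occur in another annotated gene made up 100% of mt-Co2, 99.9% of mt-Co3, 99.5% of mt-Atp6, 62.2% of mt-Nd4 and 51.1% of mt-Co1. They made up 8.19% of mt-Nd2 and 7.61% of mt-Nd5, and no such stretch was found in mt-Nd1, mt-Nd6 or mt-Cytb. The sources used here give neither the read length nor the treatment of reads that map to several places, so the levels of mt-Co2, mt-Co3 and mt-Atp6 are uncertain. For mt-Nd4 and mt-Co1 this holds in part. Among the nuclear members, 30 of 76 shared no 50-base stretch with another annotated gene and 6 shared more than 50%, namely Atp5g2, Atp5l, Atp5g1, Cox7c, Atp5h and Atp5o. Exons of 24 nuclear members overlapped those of another gene.

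No oxidative phosphorylation transcript passed the threshold between sorbate and control livers. Of the 86 members 0 were called at an adjusted p of 0.05, higher or lower, where 6.14% of the 13312 genes tested were called higher and 6.3% lower (edgeR's quasi-likelihood test, p adjusted by Benjamini-Hochberg over these genes). At an unadjusted p of 0.05, 10 members were higher and 0 lower, against 14.2% and 15.3% of all genes, and the 10 members are 11.6% of the 86. DESeq2 called 8 members higher and 0 lower, 9.3% and 0% of the members against 9.1% and 9.34% of all genes. Scaling by library size alone called 6 higher and 0 lower, where 9.77% and 4.13% of all genes were called. Limma-voom called 0 members in either direction (6.81% of all genes higher and 5.34% lower), as did edgeR without a count filter (3.75% and 4.08%) and with 1 surrogate variable (2.42% and 2.26%). The median log2 fold change, sorbate over control, was −0.03 over the 76 nuclear members (quartiles −0.10 and 0.12) and −0.12 over the 10 mitochondrial members, beside −0.02 over all genes tested (quartiles −0.28 and 0.24). All 86 members passed the low-count filter of the test, so none is missing from these counts.

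The intervals give the size of difference that these data leave possible. For 81 of the 86 members the 95% interval of the fold change lay within 2-fold in either direction, as it did for 70.7% of all genes tested. For 72 members it lay within 1.5-fold, a limit for which the share of all genes was not computed. The exceptions to the 2-fold limit were Uqcrc1, mt-Nd6, mt-Co2, mt-Co3 and mt-Atp6. The 2 groups of libraries did not overlap for 10 members, all nuclear and all higher in sorbate livers, where 9.42% of all genes did not overlap and were higher and 8.32% did not overlap and were lower. Among these were Ndufs3, Ndufv1 and Ndufb10 of complex I, Sdha of complex II, Uqcrc1 and Uqcrfs1 of complex III, Cox5a of complex IV, and Atp5a1 and Atp5b of complex V.

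**Figure D1:**
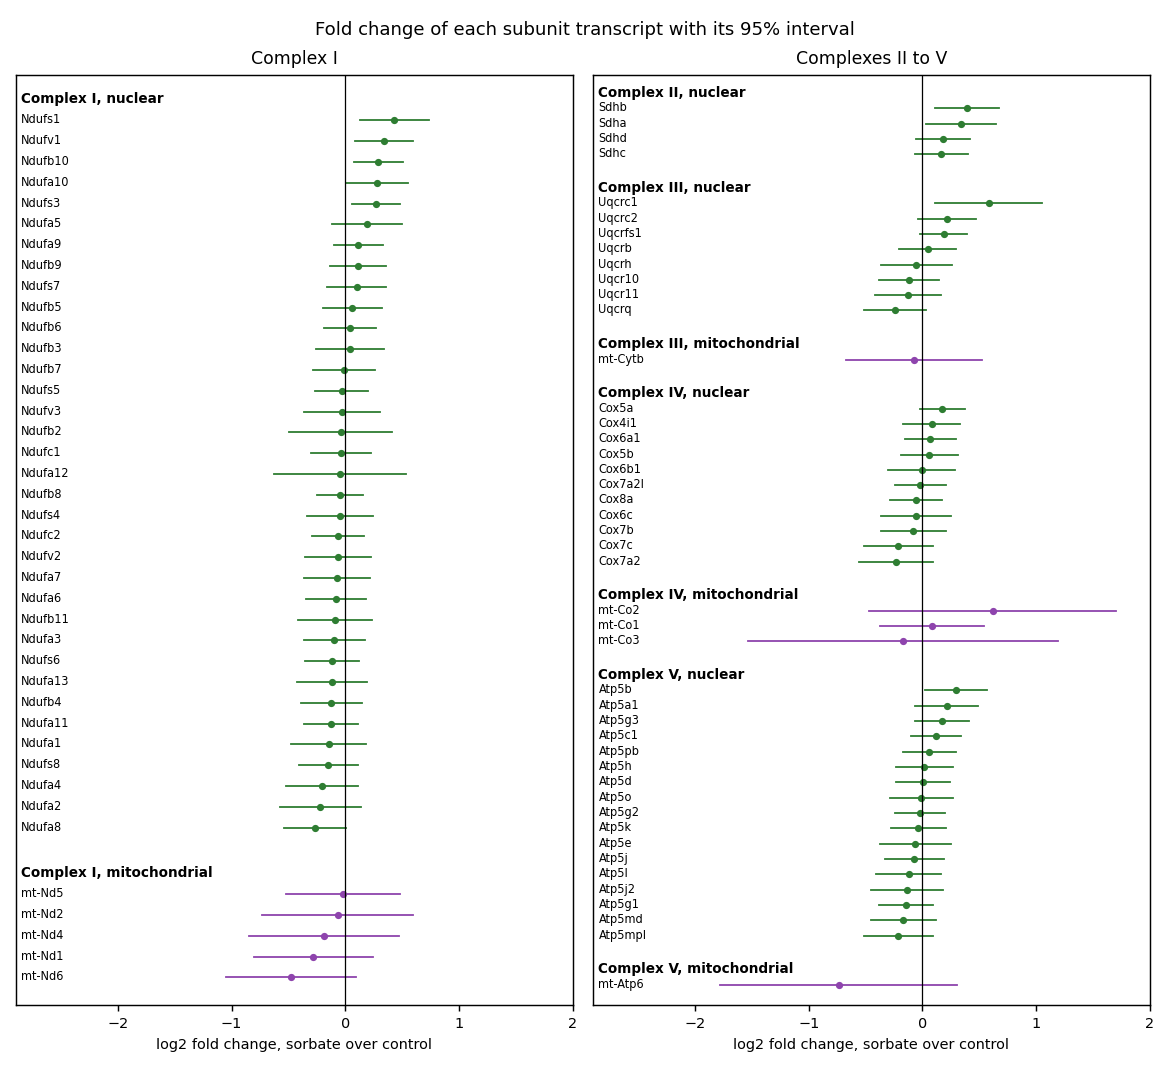
Log2 fold change, sorbate over control, of the subunit transcripts (points) with its 95% interval (lines), in order of size within complex and genome of origin, nuclear members in green and mitochondrial members in purple. Most points lie within 0.3 of 0, most mitochondrial intervals are wider than the nuclear ones, and no member passed the adjusted threshold.

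The outcome depended on control 2. Without it, 9 members were called higher (among them Ndufs1, Ndufs3, Ndufv1, Ndufb10, Sdha, Sdhb, Uqcrc1 and Atp5b) and 1 lower (Ndufa8), while 15.1% of all genes were called higher and 14.1% lower (edgeR's quasi-likelihood test). The 9 members are 10.5% of the 86 and the 1 lower member is 1.16%. Leaving out any other single library gave 0 calls in either direction. The median over the nuclear members was 0.01 without control 2.

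All 4 genes of complex II had a positive log2 fold change, with a median of 0.26. These 4 genes summed to 1030, 1038, 1018 and 1029 CPM in the sorbate libraries, against 841, 984, 818 and 704 CPM in control libraries 1 to 4. The groups did not overlap in this sum, the sorbate libraries lay close together, and control 2 was the closest to them. The ratio of the mean sums was 1.23 in favour of sorbate livers, and no test was run on the sum.

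Sdhb (chr4:140961203-140979193) encodes the iron-sulfur subunit that carries electrons from the flavin towards coenzyme Q. It was measured at 202, 235, 213 and 196 CPM in sorbate livers, against 157, 197, 146 and 144 CPM in control livers. Only control 2 reached into the sorbate range. The log2 fold change was 0.39 (SE 0.13, adjusted p = 0.0674 by edgeR's quasi-likelihood test), and without control 2 it was 0.52 with an adjusted p of 0.00454.

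Sdha (chr13:74322254-74350280) encodes the flavoprotein that oxidises succinate. Its levels were 507, 484, 482 and 519 CPM in sorbate livers and 397, 479, 383 and 311 CPM in control livers, so that every sorbate library was above every control library, control 2 by a narrow margin. The log2 fold change was 0.34 (SE 0.14, edgeR adjusted p = 0.131), and 0.46 without control 2 (edgeR adjusted p = 0.0146). The log2 fold change of the membrane anchor Sdhc was 0.16 (SE 0.11) and that of Sdhd 0.18 (SE 0.11), and neither passed the threshold with or without control 2.

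**Figure D2:**
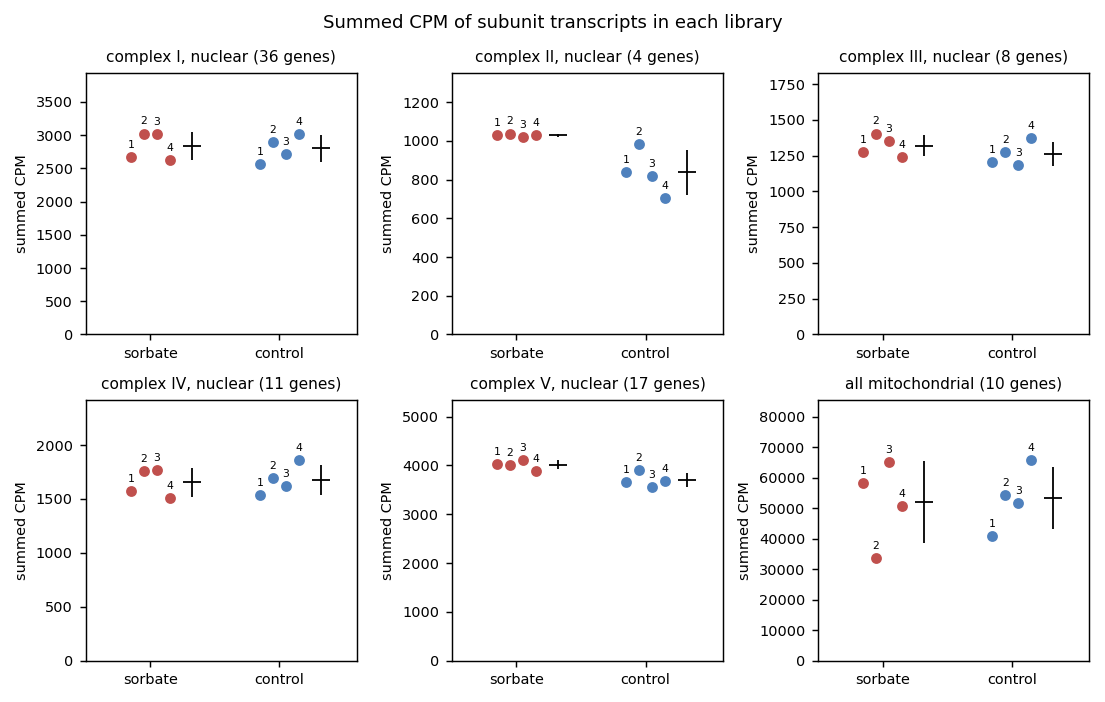
Summed CPM of the subunit transcripts in each library (points, numbered by replicate; vertical axes start at 0), with the mean and 1 SD beside them (n = 4), for the nuclear members of each complex and for all mitochondrial members. For complex II every sorbate library lies above every control library; the mitochondrial sum is widest, from 33810 CPM in sorbate 2 to 65850 CPM in control 4.

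Complex I was the largest set, and its members fell on both sides of 0. Of its 36 nuclear genes, 13 had a positive log2 fold change and 23 a negative one, with a median of −0.04, and their summed level averaged 2835 ± 216 CPM in sorbate livers and 2802 ± 202 CPM in control livers (SD, n = 4 each). The difference between the sums was smaller than the spread between libraries of either group. All 6 members with an unadjusted p below 0.05 were higher in sorbate livers, among them Ndufs1, Ndufs3, Ndufv1, Ndufa10 and Ndufb10. At that level 14.2% of all genes tested were higher and 15.3% lower.

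Ndufs1 (chr1:63143596-63176833) encodes the large iron-sulfur subunit of the NADH-oxidising module, and it had the lowest adjusted p among all members. It stood at 127, 139, 123 and 136 CPM in sorbate livers, against 84.8, 125, 96.8 and 83.2 CPM in control livers. Control 2 lay inside the sorbate range and the other controls lay below it. Its log2 fold change was 0.43 (SE 0.14, edgeR adjusted p = 0.0662), and 0.58 without control 2 (edgeR adjusted p = 0.00196).

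Ndufv1 (chr19:4007384-4012806) encodes the flavoprotein that binds NADH. It was measured at 129, 152, 149.9 and 135 CPM in sorbate livers and at 117, 128, 101 and 101 CPM in control livers, a log2 fold change of 0.34 (SE 0.12, edgeR adjusted p = 0.0792). Without control 2 it was 0.42 with an edgeR adjusted p of 0.0146. The groups did not overlap, by a margin of about 1 CPM at control 2. Ndufs3 encodes a core subunit of the module that passes electrons to coenzyme Q, and its log2 fold change was 0.27 (SE 0.10, edgeR adjusted p = 0.086), or 0.32 without control 2 (edgeR adjusted p = 0.0279). The groups did not overlap for Ndufs3 either, at 81.7 to 90.1 CPM in sorbate livers against 64.9 to 76.2 CPM in control livers. Exons of Ndufs3 hold 50-base stretches found in other annotated genes over 39.7% of the transcript, chiefly in the processed pseudogene Gm12251.

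Ndufb10, a supernumerary subunit of the membrane arm, was at 82.5, 84.1, 95.2 and 85.1 CPM in sorbate livers, against 76.8, 71.8, 68.8 and 66.2 CPM in control livers. Here control 1, not control 2, was the control nearest to the sorbate libraries. The log2 fold change was 0.29 (SE 0.10, edgeR adjusted p = 0.0776), and 0.31 without control 2 (edgeR adjusted p = 0.0483). At the other end of complex I was Ndufa8, a supernumerary subunit on the intermembrane-space side, with 58.3, 72.2, 62.0 and 60.6 CPM in sorbate livers and 84.8, 63.4, 72.1 and 83.6 CPM in control livers. Its groups overlapped through control 2 and sorbate 2, and its log2 fold change was −0.26 (SE 0.12, edgeR adjusted p = 0.182), or −0.33 without control 2 (edgeR adjusted p = 0.0461). Ndufa4, counted here with complex I by its symbol although it is now known as a subunit of complex IV, had a log2 fold change of −0.20 (SE 0.14).

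In complex III 4 nuclear genes had a positive log2 fold change and 4 a negative one. Uqcrc1 (chr9:108936633-108949623), a core subunit, had the largest fold change of any nuclear member. It was at 211, 192, 181 and 192 CPM in sorbate livers, against 166, 141, 71.4 and 139.9 CPM in control livers. The groups did not overlap, and control 3 was far below the other controls. The log2 fold change was 0.58 (SE 0.21, edgeR adjusted p = 0.0971), 0.64 without control 2 (edgeR adjusted p = 0.0498) and 0.38 without control 3. The other core subunit, Uqcrc2, had a log2 fold change of 0.21 (SE 0.12) and the Rieske iron-sulfur protein, Uqcrfs1, of 0.19 (SE 0.10), whereas the small subunit Uqcrq had −0.24 (SE 0.12), and none of these 3 passed the threshold in either fit. The 8 nuclear genes summed to 1319 ± 73.5 CPM in sorbate livers and 1261 ± 86.7 CPM in control livers (SD, n = 4 each).

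In complex IV no nuclear member reached an unadjusted p of 0.05. Its 11 nuclear genes had log2 fold changes from −0.23 to 0.18, with SE of 0.09 to 0.15. All 11 intervals lay within 1.5-fold, a limit for which the share of all genes was not computed. They summed to 1653 ± 131 CPM in sorbate livers and 1680 ± 139 CPM in control livers (SD, n = 4 each). Cox5a, a subunit that faces the matrix, was at 118 to 132 CPM in sorbate livers and 107 to 114 CPM in control livers, which did not overlap, with a log2 fold change of 0.18 (SE 0.09, edgeR adjusted p = 0.227). Exons of Cox5a overlap those of another gene, read from the opposite strand, over 41.7% of its annotated exon length. Cox7a2, the liver form of subunit VIIa, was at 113, 129, 129.6 and 106 CPM in sorbate livers and 111, 131, 140.0 and 178 CPM in control livers. These groups overlapped, control 4 alone was high, and the log2 fold change was −0.23 (SE 0.15, edgeR adjusted p = 0.329).

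Most complex IV isoforms known from other tissues were at or near 0, whereas Cox7a1 was counted in every library. Cox6a1 and Cox7a2, forms expressed in liver, were at 106 to 181 CPM in every library, whereas the heart and muscle forms Cox6a2 and Cox8b had 1 and 5 counts summed over the sorbate libraries and 3 and 1 counts over the control libraries. Cox4i2, a form known for its abundance in lung, had 5 counts in sorbate and 9 in control libraries, Cox6b2 had 11 in sorbate and 4 in control libraries, and Cox8c and Cox7b2, known from testis, were at 0 in every library. Of 8 muscle and brown adipocyte markers, Ckm, Myh1, Tnnt3 and Ucp1 were at 0 counts in all 8 libraries, and Acta1, Myh2 and Cidea had 1, 0 and 2 counts over the sorbate libraries and 0, 1 and 4 over the control libraries. The remaining one, Pparg, which other cell types also express, had 529 counts over the sorbate and 283 over the control libraries (log2 fold change 0.81, SE 0.35, edgeR adjusted p = 0.149). Cox7a1, the muscle form of subunit VIIa and below the count minimum for members, had 22, 19, 23 and 14 counts in the sorbate libraries, against 4, 12, 9 and 11 counts in the control libraries. Its groups did not overlap in raw counts, its totals were 78 counts in sorbate and 36 in control libraries, and its log2 fold change was 0.95 with an adjusted p of 0.112 by edgeR's quasi-likelihood test. Also below the minimum were Cox6c2, with 104 counts over the sorbate and 78 over the control libraries, and a second gene identifier named Atp5o, with 0. Just above it, the lowest members were Ndufb2, with 1012 counts in all, and mt-Nd6, with 3762.

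The 17 nuclear genes of the ATP synthase, complex V, summed to 4011 ± 91.3 CPM in sorbate livers and 3701 ± 148 CPM in control livers (SD, n = 4 each). The sorbate libraries lay between 3892 and 4114 CPM and the control libraries between 3563 and 3911 CPM, and only control 2 reached into the sorbate range. Atp5b (chr10:128083273-128090391) encodes the catalytic beta subunit. It was at 1097, 1029, 1036 and 1060 CPM in sorbate livers, against 899.8, 959.8, 793 and 788 CPM in control livers. The groups did not overlap and control 2 was again the control closest to sorbate. The log2 fold change was 0.30 (SE 0.12, edgeR adjusted p = 0.136), and 0.36 without control 2 (edgeR adjusted p = 0.0348).

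Atp5a1, the alpha subunit that alternates with beta in the catalytic head, was at 896, 856, 856 and 902 CPM in sorbate livers and 806, 843, 738 and 639.5 CPM in control livers, a log2 fold change of 0.21 (SE 0.13, edgeR adjusted p = 0.288). The groups did not overlap. The genes Atp5g1, Atp5g2 and Atp5g3 encode the same mature c subunit of the membrane ring. Per kilobase Atp5g3 was the most abundant of them, at 406 ± 24.0 CPM per kilobase in sorbate livers and 361 ± 27.2 in control livers. As CPM, Atp5g3 was at 290.2 ± 17.1 CPM in sorbate livers and 258 ± 19.4 CPM in control livers (log2 fold change 0.17, SE 0.11), Atp5g1 at 103 ± 11.96 CPM in sorbate and 114 ± 5.01 CPM in control livers (−0.14, SE 0.11), and Atp5g2 at 63.3 ± 5.14 CPM in sorbate and 64.3 ± 4.07 CPM in control livers (−0.02, SE 0.10; SD, n = 4 each). None was called. All of Atp5g2 and 66.0% of Atp5g1 consist of 50-base stretches found in pseudogenes or other genes, so how reads were split between them cannot be read from the counts, whereas Atp5g3 shares none.

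The mitochondrial members took 3.61% to 6.69% of the counts in sorbate libraries and 3.88% to 6.04% in control libraries, where the nuclear members took 1.07% to 1.2% in sorbate and 0.928% to 1.09% in control libraries. Their 10 transcripts summed to 51940 ± 13440 CPM in sorbate livers and 53250 ± 10190 CPM in control livers (SD, n = 4 each). Sorbate 2 was the lowest library at 33810 CPM and control 4 the highest at 65850 CPM, and the groups overlapped throughout. The ratio of the mitochondrial to the nuclear sum was 4.80 ± 1.247 in sorbate livers and 5.16 ± 0.820 in control livers (SD, n = 4 each), a difference smaller than either spread.

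Per kilobase of transcript, mt-Co1, the catalytic subunit of complex IV, was the most abundant member, at 13740 ± 2381 CPM per kilobase in sorbate livers and 12950 ± 2158 in control livers (SD, n = 4 each). Next came mt-Cytb, the cytochrome b of complex III, at 9299 ± 2967 CPM per kilobase in sorbate and 9779 ± 2232 in control livers, then mt-Nd1 and mt-Nd2, membrane subunits of complex I, at 5343 ± 1427 and 5529 ± 2182 in sorbate livers and 6488 ± 1480 and 5796 ± 1070 in control livers. The transcripts mt-Nd4 and mt-Nd5 lay at 2774 to 3310 CPM per kilobase by group mean. In both groups the steps from mt-Co1 to mt-Cytb, from mt-Cytb to the pair mt-Nd1 and mt-Nd2, and from that pair to mt-Nd4 and mt-Nd5 were larger than the SD on either side. The members of each pair differed by less than the larger of their SDs. These levels divide by the full transcript length. Because 51.1% of mt-Co1 and 62.2% of mt-Nd4 is shared, their places in this order depend on how shared reads were counted, which is not known.

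A second set lay far lower. By group mean, mt-Co2, mt-Co3 and mt-Atp6 were between 36.4 and 85.9 CPM per kilobase, and mt-Nd6, the only member encoded on the opposite strand of the mitochondrial genome, was at 36.4 ± 14.4 in sorbate livers and 50.7 ± 3.40 in control livers (SD, n = 4 each). These first 3 are the members that share nearly all of their sequence with chromosome 1. The transcript mt-Nd6 shares no 50-base stretch with another annotated gene, and mt-Co1, the most abundant, shares 51.1%. The parts that shared sequence and the selection of poly(A) RNA play in these levels were not tested. The matching pseudogenes were counted too: Gm10925, the copy of mt-Atp6, had 2501 counts over the sorbate libraries and 2001 over the control libraries, Gm28661 had 1329 over the sorbate and 1272 over the control libraries, and Gm28437 had 1365 over the sorbate and 1671 over the control libraries. None of the 3 was called. Below the count minimum stood mt-Nd4l, with 121 counts over the sorbate and 172 over the control libraries, mt-Nd3 with 96 in sorbate and 106 in control libraries, and mt-Atp8 with 66 in sorbate and 78 in control libraries. Of these, mt-Nd4l and mt-Nd3 share 98.8% and 98.0% of their 50-base stretches with other annotated genes, and mt-Atp8 shares none with an annotated gene. Only annotated genes were searched, so an unannotated copy would not be seen. In the mitochondrial genome mt-Atp8 (chrM:7766-7969) lies between mt-Co2 and mt-Atp6, which both have copies on chromosome 1, and it overlaps mt-Atp6.

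**Figure D3:**
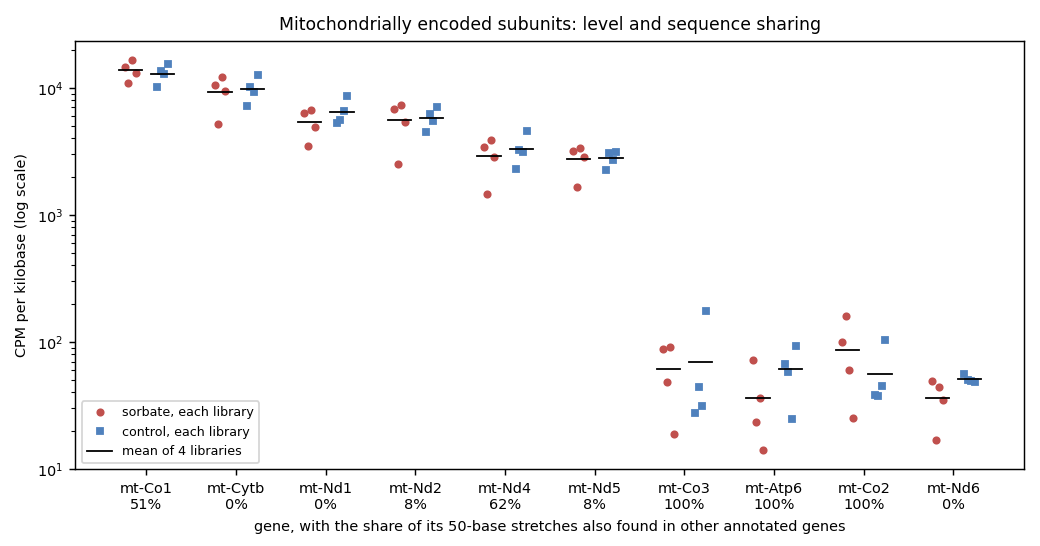
Level of each of the 10 mitochondrial members in CPM per kilobase (log scale) in each sorbate and control library (points) with the group mean (lines, n = 4), in order of the control mean; under each gene stands the share of its 50-base stretches also found in other annotated genes. Of the 4 low members, mt-Co2, mt-Co3 and mt-Atp6 share nearly all of their sequence and mt-Nd6 shares none. The highest member, mt-Co1, shares 51.1%.

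No mitochondrial member was called, with or without control 2. The complex I genes had log2 fold changes of −0.48 (mt-Nd6, SE 0.26), −0.28 (mt-Nd1, SE 0.24), −0.19 (mt-Nd4, SE 0.30), −0.07 (mt-Nd2, SE 0.30) and −0.02 (mt-Nd5, SE 0.23). Of these mt-Nd6 was at 25.79, 8.71, 22.8 and 18.2 CPM in sorbate livers and 28.9, 26.1, 25.3 and 24.99 CPM in control livers, where sorbate 2 was low and sorbate 1 lay among the controls (edgeR adjusted p = 0.247). Relative to mt-Cytb in the same library, mt-Nd1 was at 0.491 ± 0.0552 in sorbate livers and 0.560 ± 0.0702 in control livers, and mt-Co1 at 2.104 ± 0.479 in sorbate and 1.81 ± 0.115 in control livers (SD, n = 4 each), with mt-Co1 reaching 2.82 in sorbate 2. For mt-Nd4 this ratio was 0.372 ± 0.0225 in sorbate and 0.404 ± 0.0254 in control livers, a difference larger than either SD. For mt-Nd6 it was 0.00174 ± 0.000280 in sorbate and 0.00248 ± 0.000757 in control livers (SD, n = 4 each), a difference larger than the SD of the sorbate livers and smaller than that of the control livers. The groups overlapped in each of these 4 ratios, and for mt-Nd2 and mt-Nd5 the difference between groups was smaller than either SD. No test was run on these ratios.

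Within the low set, mt-Co2, mt-Atp6 and mt-Co3 had the largest SE of any of the 86 members. The levels of mt-Co2 were 68.4, 108, 41.1 and 17.1 CPM in sorbate livers and 26.0, 25.9, 31.0 and 70.3 CPM in control livers, a log2 fold change of 0.62 (SE 0.49, edgeR adjusted p = 0.43). Those of mt-Atp6 were 49.0, 16.1, 24.5 and 9.61 CPM in sorbate livers and 46.0, 39.7, 17.0 and 63.5 CPM in control livers, a log2 fold change of −0.74 (SE 0.47, edgeR adjusted p = 0.328). Those of mt-Co3 were 69.6, 37.9, 71.6 and 14.7 CPM in sorbate livers and 21.5, 34.6, 24.6 and 138 CPM in control livers, a log2 fold change of −0.17 (SE 0.62, edgeR adjusted p = 0.883). All 3 groups of values overlapped, and control 4 was the highest control library for each.

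Among the nuclear members the fold change followed transcript length. Across the 76 genes, the log2 fold change and the log2 length of the principal transcript had a Pearson r of 0.64 and a Spearman rho of 0.60, against 0.12 and 0.15 across the 11962 tested genes with a length. Without control 2 they were 0.63 and 0.58. These are descriptions across genes of the same 8 libraries, and genes are not independent replicates. Of the 38 members under 750 bases, 9 had a positive log2 fold change and the median was −0.06, of the 24 members from 750 to under 1500 bases 12 did and the median was 0.00, and of the 13 members from 1500 to under 3000 bases 10 did and the median was 0.27. All tested genes in the same classes had medians of −0.21, −0.10 and −0.04.

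Levels of short transcripts also differed between libraries. All tested genes under 750 bases had a median deviation from their 8-library mean of −0.25 (log2) in sorbate 4 and −0.15 in sorbate 1, and of 0.34 in control 4 and 0.13 in control 3, with the remaining libraries within 0.02 of 0. Members from 1500 to under 3000 bases had median deviations of 0.08, 0.21, 0.12 and 0.11 in sorbate libraries 1 to 4, against −0.14, 0.05, −0.20 and −0.24 in control libraries 1 to 4. For these members the deviation was above 0 in control 2 and below 0 in the other controls. All tested genes of that length had median deviations of −0.03 to 0.02 in sorbate and −0.02 to 0.04 in control libraries. Members under 750 bases had −0.11, 0.07, 0.10 and −0.19 in sorbate libraries 1 to 4. In control libraries 1 to 4 these short members had −0.10, 0.05, −0.005 and 0.15. The part that a length-dependent difference between libraries plays in the members' fold changes was not tested.

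**Figure D4:**
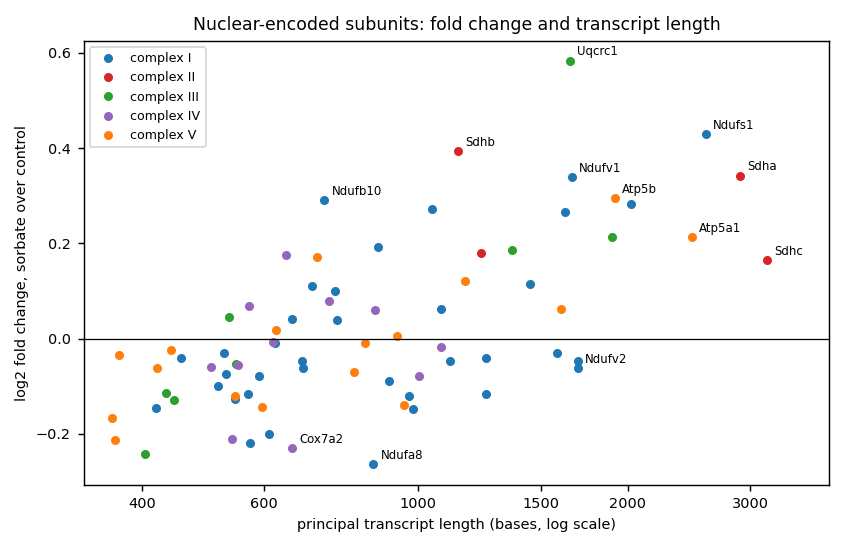
Log2 fold change, sorbate over control, of nuclear members against the length of the principal transcript (log scale), coloured by complex. Members longer than 1500 bases, among them Ndufs1, Sdha, Uqcrc1 and Atp5b, lie mostly above 0, and most members under 750 bases lie below it.

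Length and role in the complex went together. The roles below were set out after the values were seen and describe only. Of the 7 electron-transfer core subunits of complex I, 5 had a positive log2 fold change (median 0.27), as did both catalytic subunits of complex II (0.37), all 3 core and Rieske subunits of complex III (0.21) and 4 of the 5 subunits of the F1 part of complex V (0.12). Of the other 57 nuclear members of complexes I, III, IV and V, 16 did (median −0.05). The median transcript length was 1623 bases for the complex I core and 645 bases for those 57, so that role and length were not separated here.

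Factors with known roles at these genes were represented by exact sequence motifs searched for in the promoter windows, 250 bases before to 50 bases after the start site, from RefSeq on GRCm38.p6. A window was found for 64 of the 76 nuclear members. The motifs, searched on both strands, were GCATGCGC for NRF1, CCGGAAGT for GABPA, an ETS-family factor, AAGATGGC for YY1 and AAGGTCA for estrogen-related receptors. GCATGCGC occurred in 10 members (15.6%), against 5.81% of tested genes with a window and 3.05% of all 27025 genes with a window. AAGATGGC occurred in 10 (15.6%), against 5.24% and 3.19%, AAGGTCA in 8 (12.5%), against 4.35% and 5.38%, and CCGGAAGT in 5 (7.81%), against 9.04% and 4.31%. A match is a string of letters and not a measured binding site. For Uqcrc1, Sdhb, Ndufs3 and Sdhd, chosen as examples among the members described above, the stretch of the window around the motif is printed, with the motif in capitals in either orientation and each read along the gene's own strand.
Uqcrc1 (chr9:108936638-108936697, plus strand): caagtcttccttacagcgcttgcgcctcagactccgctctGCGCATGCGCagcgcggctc
Sdhb (chr4:140961177-140961264, plus strand): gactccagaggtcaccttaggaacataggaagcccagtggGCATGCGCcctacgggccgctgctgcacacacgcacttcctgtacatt
Ndufs3 (chr2:90904674-90904761, minus strand): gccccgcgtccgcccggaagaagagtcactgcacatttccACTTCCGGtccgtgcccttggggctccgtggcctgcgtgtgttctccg
Sdhd (chr9:50603800-50603853, minus strand): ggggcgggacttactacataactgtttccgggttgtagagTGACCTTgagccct

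In Uqcrc1 the NRF1 letters occur on both strands in overlapping copies, which the run of capitals joins. The printed examples all had positive log2 fold changes, but most members with these letters did not. Of the 10 members with the NRF1 letters, only Uqcrc1, Sdhb and Cox6a1 had positive values. Ndufa8, the member called lower without control 2, was among the negative ones. Of the 8 with the estrogen-related receptor letters, only Sdhd and Atp5g3 had positive values. For the GABPA letters, Ndufs3 and Atp5h had positive values and Cox8a, Uqcr11 and Uqcrh negative ones.

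Regulators of mitochondrial genes in general were among those that passed the threshold. Of the 14 tested transcriptional regulators of mitochondrial genes, 3 were higher in sorbate livers and 0 lower, where 6.14% of all genes were called higher and 6.3% lower (median log2 fold change 0.16). Esrra, the estrogen-related receptor alpha, was at 35.8, 31.4, 37.7 and 40.4 CPM in sorbate livers, against 14.2, 27.5, 10.5 and 15.3 CPM in control livers, without overlap and with control 2 nearest to sorbate (log2 fold change 1.11, SE 0.24, edgeR adjusted p = 0.0175). Ppargc1b, a coactivator of that receptor, was at 5.86 to 7.87 CPM in sorbate livers and 0.996 to 3.97 CPM in control livers (1.72, SE 0.35, edgeR adjusted p = 0.0115). Ppara, the nuclear receptor for fatty acids, was at 112 to 181 CPM in sorbate livers and 64.6 to 84.3 CPM in control livers (0.95, SE 0.16, edgeR adjusted p = 0.00569). Without control 2 the log2 fold changes were 1.45 for Esrra, 2.21 for Ppargc1b and 1.02 for Ppara, and all 3 passed the threshold. The related coactivator Ppargc1a had a log2 fold change of 0.12 (SE 0.26) and the factor Nrf1 of 0.02 (SE 0.14).

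Genes of neighbouring mitochondrial pathways were called as well, against the same 6.14% of all genes higher and 6.3% lower. Of the 17 tricarboxylic acid cycle and pyruvate dehydrogenase genes, 6 were higher and 0 lower (among them Idh3a, Idh3b, Ogdh, Pdhx and Suclg1; median 0.25), and Idh3a, the catalytic subunit of the NAD-dependent isocitrate dehydrogenase, averaged 40.8 ± 7.79 CPM in sorbate livers and 26.0 ± 1.85 CPM in control livers (SD, n = 4 each; log2 fold change 0.65, edgeR adjusted p = 0.0148). Of 12 membrane carriers and channels, 5 were higher (Slc25a20, Slc25a13, Slc25a10, Slc25a11 and Vdac2) and 1 lower (Slc25a1, the citrate carrier, −0.44), with a median of 0.22. Of 29 genes that maintain and express mitochondrial DNA, 5 were higher and 0 lower (Mtif3, Polg2, Twnk, Polg and Hsd17b10; median 0.10). Polg and Polg2, the catalytic and accessory subunits of the mitochondrial DNA polymerase, differed by 0.34 (SE 0.10) and by 1.14 (SE 0.29) on the log2 scale. Without control 2 the counts were 9 higher and 1 lower for the cycle, 5 and 2 for the carriers, 8 and 1 for mitochondrial DNA, and 3 and 1 for the regulators, where 15.1% of all genes were called higher and 14.1% lower. The difference between these lists and the subunits was not tested.

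Assembly factors build the complexes without being part of them. For these lists too, the shares of all genes called were 6.14% higher and 6.3% lower. Of 15 complex I factors, Ndufaf4 (log2 fold change 0.50) and Tmem186 (0.46) were higher and Ndufaf8 (−0.45) lower, and Uqcc1 (0.47) was higher among 6 factors of complex III. No factor was called among 4 of complex II, 21 of complex IV and 4 of complex V by edgeR's quasi-likelihood test. Without control 2, 3 factors of complex I were higher and 1 lower, 1 factor of complex III was higher, and 0 were called among those of complexes II, IV and V. Among 13 coenzyme Q genes, Coq10b, a coenzyme Q binding protein, was higher by 1.68 (SE 0.20, edgeR adjusted p = 0.00124) and was the only one called. Without control 2 its log2 fold change was 1.66 (edgeR adjusted p = 0.000192) and 4 of the 13 were higher. Of 8 further subunits and carriers that the symbol patterns miss, 0 were called, and Etfdh and Etfa, which feed electrons from fatty acid oxidation to coenzyme Q, differed by 0.34 (SE 0.14) and by 0.28 (SE 0.12) on the log2 scale. Without control 2 these 2 genes were called higher, at 0.48 (edgeR adjusted p = 0.00865) and 0.39 (edgeR adjusted p = 0.0123).

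**Figure D5:**
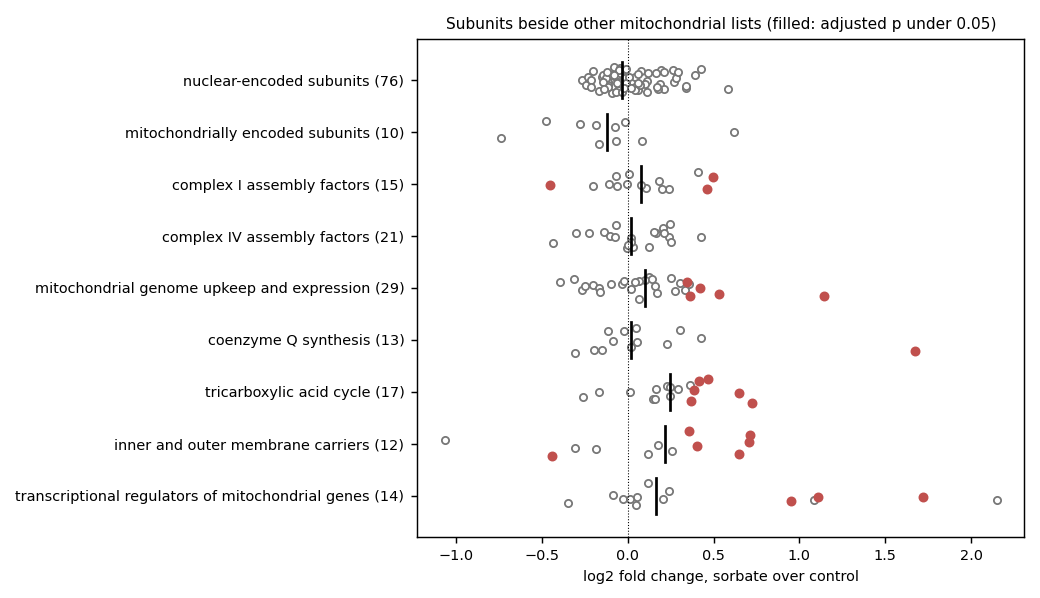
Log2 fold change, sorbate over control, of the subunits and of 7 other mitochondrial gene lists (points are genes, vertical bars list medians, numbers in brackets genes tested). Filled points passed an adjusted p of 0.05 in edgeR's quasi-likelihood test; there are none among the nuclear or mitochondrial subunits, while the tricarboxylic acid cycle list has 6.

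Some markers of other liver cells were lower in sorbate livers. Of 8 Kupffer cell and macrophage markers 4 were called lower and 0 higher, where 6.3% of all genes were called lower and 6.14% higher, with a summed level of 141 to 273 CPM in sorbate livers and 195.5 to 471 CPM in control livers, the lowest control being control 2. Among 5 tested erythroid markers 4 were lower (summed 251 to 373 CPM in sorbate and 331 to 1375 CPM in control livers). Among 4 cholangiocyte markers 2 were lower, among 7 endothelial markers 1, and the 1 neutrophil marker tested, S100a9, was lower too. The remaining cholangiocyte markers tested, Krt19 and Epcam, had log2 fold changes of 1.03 (edgeR adjusted p = 0.113) and 0.06 and were not called. Ly6g, Camp and Ngp had 0 counts in all sorbate libraries, and 11, 9 and 27 over the control libraries. Of the other untested neutrophil markers, Mpo, Elane, S100a8 and Retnlg had 14, 11, 10 and 1 counts over the sorbate libraries. Over the control libraries these had 35, 35, 311 and 109. Of 7 stellate cell markers and 1 lymphocyte marker 0 were called. Without control 2 the lower calls were 7 for macrophages, 5 for endothelium, 4 for erythroid, 3 for neutrophil markers, more of which then passed the count filter, and 2 for cholangiocyte markers, where 14.1% of all genes were called lower. In the same fit 1 erythroid marker, Alas2, was called higher (0.46, edgeR adjusted p = 0.0128), where 15.1% of all genes were. Among the control libraries, control 2 had the lowest sum for macrophage, neutrophil, endothelial, stellate, cholangiocyte and erythroid markers and the highest for lymphocyte markers, 5.03 CPM, with 2.68 to 4.25 CPM in sorbate livers. Their part in the subunit levels was not tested.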

How the data were processed

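The deposited table holds raw counts, whole numbers of reads per gene, and the authors left them unnormalised as judged from the values. HISAT2 2.1.0, Subread, FastQC and edgeR are named in the submitters' processing notes, as is the genome build GRCm38. The sources used here give no counting settings, read length or use of strand. Groups came from the treatment label, replicate numbers only name libraries in accession order, and 4 other columns of per-sample values, which match none of the samples, were left out of every step. Nothing states that each library is a separate animal, so the p-values reflect only how these libraries vary, which may be technical. Sampling noise was exceeded by the difference of every pair of libraries within a group (24.8 to 238 as chi-square per gene).

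Genes were kept by edgeR's filterByExpr (count minimum 10; 13312 of 55487 genes), scaled by TMM factors, and tested two-sided with edgeR 4.0.16 in R 4.3.3 (quasi-likelihood test, Benjamini-Hochberg adjustment over all genes tested, threshold 0.05). CPM values are counts per 1000000 of the TMM-scaled library size, and log2 fold changes are relative to that scaling. SE values follow from the F statistic and the unshrunk coefficient. Scripts were tested on simulated counts. Alternatives were DESeq2 1.42.0, limma-voom (limma 3.58.1), scaling by library size alone or without mitochondrial genes, no count filter, 1 surrogate variable, an unlabelled source of variation estimated from the data (sva 3.50.0), a threshold of 0.1 and leaving out each library. Genes named are all mitochondrial members, the 2 lowest p in each nuclear complex, the tissue isoforms and those next to the count minimum. Ndufs3, Ndufv1, Ndufa8 and other genes outside this rule were named after their values were seen. Counts, medians and sums cover all members and list genes, although results of some single genes are not reported here. The members and all gene lists were chosen with earlier results of these data known. Transcript length and shared 50-base stretches came from GENCODE vM21 transcripts.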

Additional observations from a re-analysis of the deposited data

Results flagged for a closer look

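In 3 of 90 groups of 4 libraries examined, 1 library lay far from the other 3 by Dixon's criterion, which chance meets in about 1 of 20 groups. The level of mt-Co2 was 70.3 CPM in control 4, against 25.9 to 31.0 CPM in the other controls. The level of mt-Co3 was 138 CPM in control 4, against 21.5 to 34.6 CPM in the other controls. Cox8a was at 169 CPM in control 2, against 149 to 152 CPM in the other controls.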

How the results depend on the processing

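The number of members called higher was 0 by edgeR, by limma-voom, without a count filter, with scaling that left out mitochondrial genes and with 1 surrogate variable. It was 8 by DESeq2, 6 with scaling by library size alone (9.77% of all genes), 6 at a threshold of 0.1 (10% of all genes) and 7 without control 2 and sorbate 2, a pair chosen after the data were seen, which also gave 1 lower call, where 14.4% of all genes were higher and 13.8% lower. Leaving out each library in turn gave 0 to 9 members higher and 0 to 1 lower, the highest values without control 2. The nuclear median was 0.093 with library size alone, which moved the median of all genes to 0.11, and −0.06 to 0.03 over the fits that left out 1 library. The mitochondrial median was −0.30 to 0.08 over those fits. No paired analysis was possible because replicate numbers only follow accession order.

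Over the 33 named members and all settings, 399 values kept their direction and side of the threshold. A further 24 gained a call, under DESeq2, library size alone or without control 2, and 39 changed sign. The sign changes fell on members whose log2 fold change lay near 0 or had a wide interval. With library size alone the values were 0.051 for mt-Nd2, 0.10 for mt-Nd5, 0.049 for mt-Cytb, 0.12 for Cox6b1, 0.11 for Cox7a2l, 0.066 for Cox8a, 0.10 for Atp5g2 and 0.078 for Ndufb2. Without a count filter Cox6b1 was at 0.001. Limma-voom gave 0.043 for mt-Co3 and 0.006 for Ndufb2, and the surrogate variable 0.20 for mt-Co3, 0.072 for Cox7a2l and 0.016 for Atp5g2. With each library left out in turn, values ran from −0.015 to 0.19 for mt-Co1, −0.23 to 0.18 for mt-Nd2, −0.36 to 0.038 for mt-Nd4, −0.12 to 0.17 for mt-Nd5, −0.22 to 0.13 for mt-Cytb, −0.43 to 0.85 for mt-Co3, −0.099 to 0.063 for Cox6b1, −0.052 to 0.032 for Cox7a2l, −0.10 to 0 for Cox8a, −0.075 to 0.023 for Atp5g2 and −0.17 to 0.15 for Ndufb2. The cause of these changes was not tested. Each member had at least 1012 counts summed over the 8 libraries. The part of depth in the width of the intervals was not tested.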
